A study of Mus musculus with 12 samples.

Results

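The genes described here are 45 mouse genes of DNA replication, from the origin licensing factors and the MCM helicase to the polymerases, the sliding clamp, the enzymes of nucleotide supply and the proteins that restore chromatin and methylation behind the fork. They were chosen by name, and all 45 symbols were found among the 37991 genes of the count table and passed the filter on low counts. RNA had been sequenced from GFP+ NSCs that were sorted from the SVZ of adult C57BL/6 mice to learn how loss of Gli1 alters the response of these cells to demyelination. Gli1Het mice carried CreERT2 in 1 copy of the Gli1 locus and Gli1Null mice carried it in both, so that the latter lacked Gli1 in the whole animal. Mice of both genotypes also carried the RCE reporter, which marks cells with GFP once Cre has acted. All of them received 4 injections of 5 mg tamoxifen at the age of 10 weeks. They were then kept on normal chow (control diet) or given 0.2% cuprizone, a copper chelator that kills oligodendrocytes, for 3 weeks. Each of the 4 groups held 3 libraries, and each library pooled 2 brains, from 1 male and 1 female. A p-value here thus reflects how far such pools differ, and the labelled cells included whatever the marked cells had become by the time of the sort.

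Before a cell divides, the origin recognition complex, Cdc6 and Cdt1 load the MCM helicase at origins, and kinases then join Cdc45 and GINS to it to open the DNA. Polymerase alpha with primase starts each strand, the clamp loader places PCNA, polymerases delta and epsilon extend the strands, and flap cutting and ligation close the gaps between lagging strand pieces. Most of these genes are transcribed at the G1/S transition under E2F factors, so their mRNA is high in dividing transit-amplifying progenitors of the SVZ and low in quiescent stem cells.

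Gene counts per library ranged from 13752801 to 32468063, with the Gli1Het libraries the shallower ones on the whole. Gli1 itself was at 8.66, 18.1 and 17.4 CPM (the count of a gene over the TMM-scaled total of its library) in the Gli1Het control libraries, at 21.1, 0.82 and 3.80 in the Gli1Het cuprizone libraries, at 0.365, 0.389 and 0.295 in the Gli1Null control libraries and at 0.65, 0.471 and 0.761 in the Gli1Null cuprizone libraries. Replicates are listed in the order 1, 2 and 3 throughout. The library labelled Gli1Het cuprizone replicate 2 thus held almost as little Gli1 as the Gli1Null libraries. Replicate 3 of that group held less than any Gli1Het control library. The level of Gli1 RNA alone does not decide the genotype of a library, and whether the label is right was not tested. Counts by edgeR, medians and the changes of the genes given in full are therefore followed, for the Gli1Het diets, by their values without replicate 2. Standard errors and adjusted p of both genotypes come from 1 fit of all 4 groups, which share 1 estimate of spread for each gene. For the Gli1Null diets the values given gene by gene are from the fit of all 12 libraries, with Orc6 the exception. Their standard errors and adjusted p thus include the spread among the Gli1Het cuprizone libraries. For the Gli1Null diets edgeR called 0 of the 45 genes in that fit (0.25% of all genes as lower). Without the library labelled Gli1Het cuprizone replicate 2 it called 10 (2.78%). The stem cell genes Sox2, Nes, Vim, Prom1 and Gfap were found in every library, with a sum of 698.5 CPM in the lowest and 3221 CPM in the highest. In sorted bulk samples, fewer dividing cells and less of these mRNAs per dividing cell cannot be told apart.

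In the 6 control libraries the genes covered a 109.4-fold range of level per exon length. Rrm2, the small subunit of ribonucleotide reductase, was highest at 184.0 ± 15.9 CPM per kb (SD, n = 6). It was followed by Mcm7 at 100.8 ± 11.2, Pcna at 97.9 ± 10.3 and Mcm6 at 90.5 ± 7.21 CPM per kb, and the neighbours Mcm7, Pcna and Mcm6 overlapped in their ranges over the 6 libraries. At the other end lay Ung at 1.68 ± 0.197 and Orc1 at 3.44 ± 0.403 CPM per kb, which did not overlap. Exon length here is the length of all annotated exons together, so genes with many transcript forms are set too low.

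**Figure D1:**
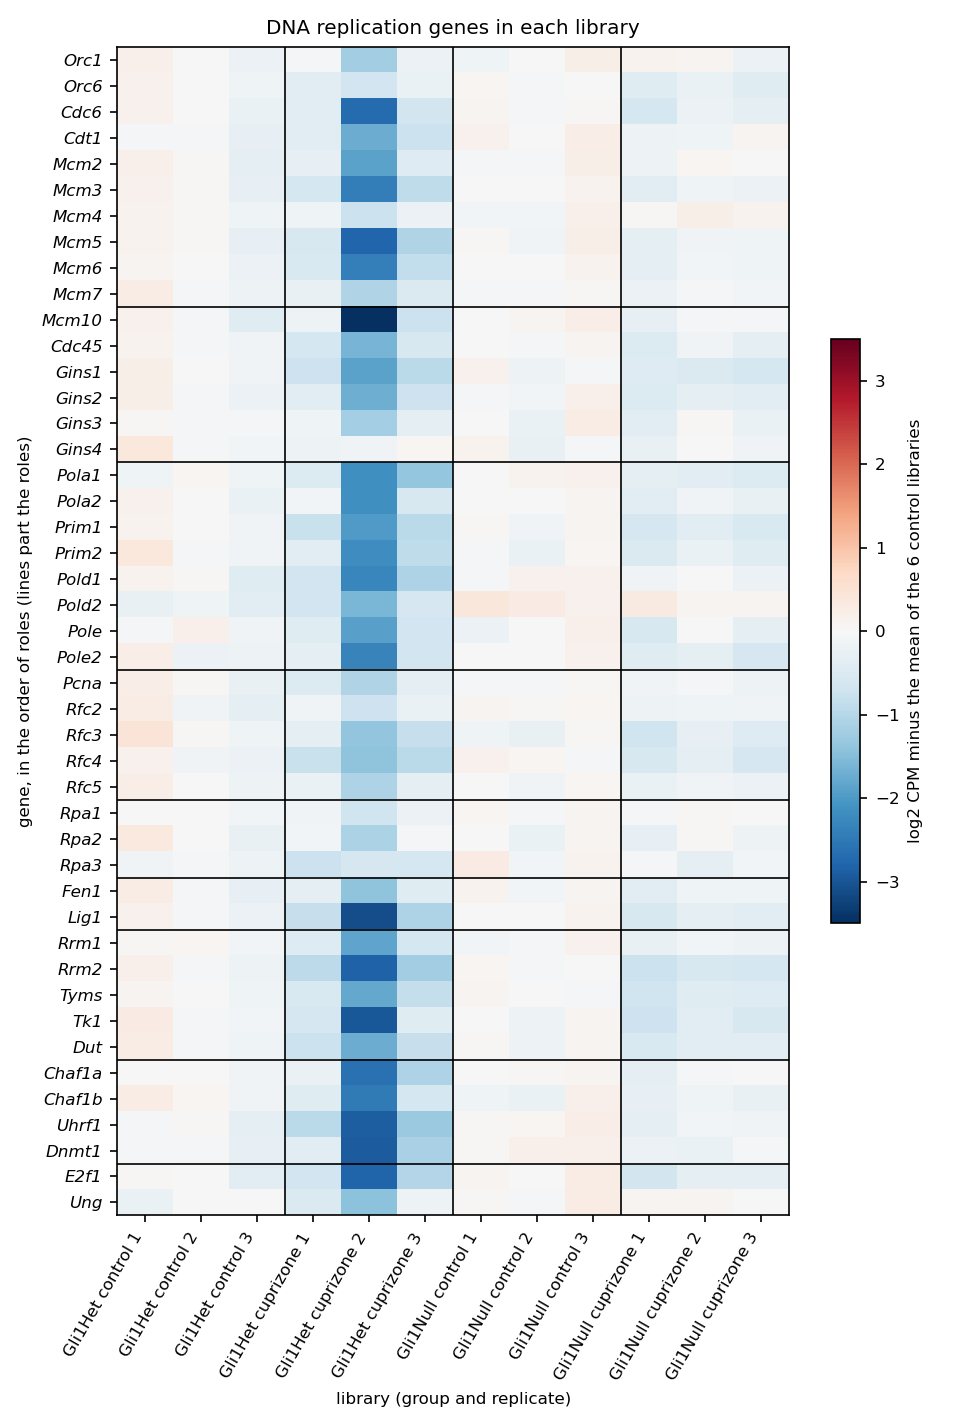
Level of each of the 45 genes (rows, in the order of roles) in each of the 12 libraries (columns), as log2 CPM minus the mean of the 6 control libraries, with blue for lower and red for higher. The column of Gli1Het cuprizone replicate 2 is the bluest, with a median of -1.85, against -0.42 and -0.66 in the other 2 libraries of that group and -0.34 to -0.14 in the Gli1Null cuprizone libraries.

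Replication genes fell on cuprizone in Gli1Het NSCs. Of the 45 genes, 27 were lower with edgeR's quasi-likelihood test at an adjusted p under 0.05, none was higher and 18 did not pass. Over all 17623 genes tested, 15.3% passed as lower and 18.8% as higher. The fitted log2 fold change was negative for 45 of 45 genes, where 49.1% of all genes were negative, and the median was -0.86, which is 54.9% of the control level, beside 0.02 for all genes. For 36 of the 45 genes every cuprizone library lay below every control library, which held for 20.8% of all genes. The changes ran from -1.44 for Rrm2 to -0.16 for Gins4.

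The 3 Gli1Het cuprizone libraries differed widely. The paper lists replicate 1 of this group with the lowest RNA concentration and the lowest RNA integrity number of all 12 samples. It also gives this group the lowest mean number of sorted cells. Whether these limits bear on the differences was not tested. The library labelled replicate 2 was the lowest of all 12 for 43 of the 45 genes, against 29.1% of all genes. Its median was 27.8% of the Gli1Het control level. Replicates 1 and 3, averaged, stood at a median of 68.3%, and both lay below every Gli1Het control library for 36 of the 45 genes (24.5% of all genes). The order was replicate 2, then 3, then 1 from low to high for 36 genes, which 28.2% of all genes shared. Within that group the coefficient of variation of a gene had a median of 41.7%, against 13.2% in the Gli1Het control group, 7.90% in the Gli1Null control group and 8.41% in the Gli1Null cuprizone group.

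The count of 27 moved with the libraries in the fit while the direction did not. With the library labelled Gli1Het cuprizone replicate 2 left out, the test called 29 genes lower, of which 25 were among the 27, and the median was -0.55. These are to be read beside 12.3% of all genes. Orc6 and Rfc5 lost the call without that library and Cdc6, Tk1, Chaf1b and Dnmt1 gained it, while the change became smaller for 44 of the 45 genes, by over 1.5 times for 28 of them, and then ran from -1.05 for Rrm2 to -0.11 for Orc1. Without Gli1Het control replicate 1 it called 10 (9.64% of all genes), and without Gli1Het control replicate 2 it also called 10 (7.02%). DESeq2 called 31 (17.6%), and limma with library quality weights called 37 (27.8%). In the limma fit the Gli1Het cuprizone libraries had weights of 0.277, 0.115 and 3.63, so that replicate 3 carried most of that group. The Gli1Het control libraries had weights of 0.488, 2.90 and 0.895. The other limma counts given here come from the same fit and have the same limit. Fitted on the 2 Gli1Het groups alone, edgeR called 1 gene, Rfc4, and 0.736% of all genes as lower. The 9 genes Cdc45, Dut, Gins1, Prim1, Rfc4, Rpa3, Rrm2, Tyms and Uhrf1 passed with each of the 12 libraries left out in turn, as 5.58% of all genes did as lower. Sample numbers under 10 in the labels occurred in the Gli1Het groups only, for replicates 2 and 3 of each diet. Among those libraries the median difference between the diets was -1.21, and between the replicate 1 libraries, 1 on each diet, it was -0.57.

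**Figure D2:**
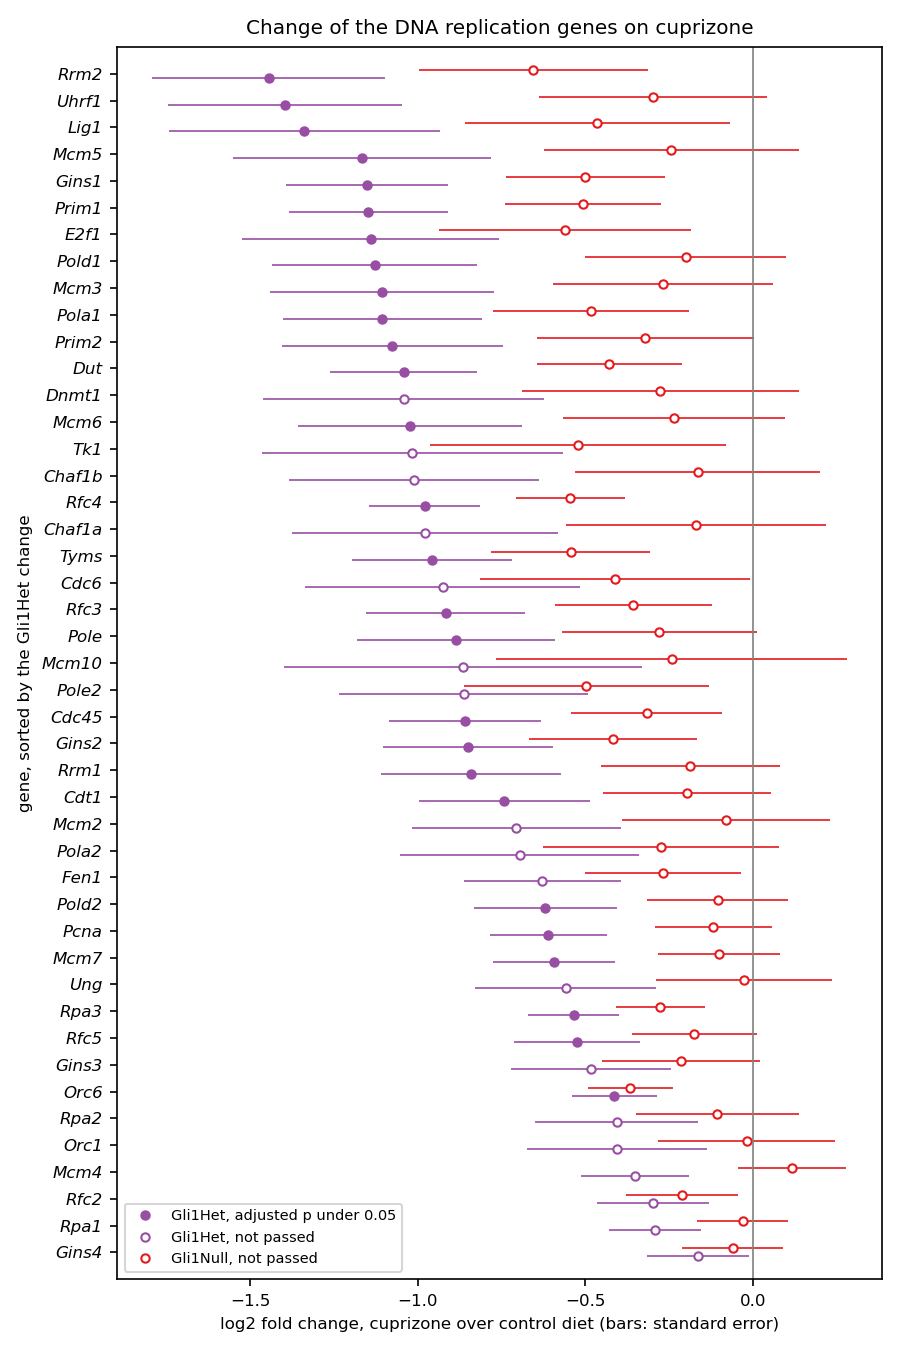
Log2 fold change of cuprizone over control diet for each of the 45 genes in Gli1Het (purple) and Gli1Null (red) NSCs, with the standard error as bars and filled points for an adjusted p under 0.05. The 27 filled points are all purple and all left of 0, and every purple point lies left of the red point of its gene.

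The promoters of these genes are shown because the genes moved together and many belong to the E2F programme. Of the 45 genes, 38 had an entry in the RefSeq promoter table (GRCm38.p6, the build called mm10), from 250 bases before to 50 after the transcript start, and Gins1, Gins2, Gins4, Mcm4, Pole, Prim2 and Rfc2 had none. A core E2F motif (TTTCCCGC, TTTGGCGC, TTTCGCGC or TTTGCCGC, on either strand) was found in 15 of the 38 genes, or 39.5%, and in 2.605% of the 27025 genes of the table. CCAAT, on either strand, was in 60.5% of the 38 genes and in 41.1% of all genes, and the CHR element (TTTGAA or TTCGAA) was in 21.1% and 21.7%. The 15 genes with an E2F match were Cdc6, Cdt1, Dnmt1, Gins3, Lig1, Mcm3, Mcm5, Mcm6, Mcm7, Orc1, Pola1, Pold1, Pole2, Rfc3 and Uhrf1. Of these, 10 passed as lower in Gli1Het NSCs, with a median log2 fold change of -1.02, and of the 23 genes without a match 13 passed, with a median of -0.84. The 2 sets overlapped over most of their range, from -1.40 to -0.41 and from -1.44 to -0.29. When the library labelled Gli1Het cuprizone replicate 2 was left out, 12 of the 15 and 13 of the 23 passed, with medians of -0.64 and -0.52. Rrm2, with the steepest fall of the 45, had no match in its window, and Orc1, with one of the smaller changes, had one. Below are the last 160 bases before the start and the first 20 after it, 5′ to 3′ on the strand of the gene, with the E2F matches in capitals, for 4 genes with a match that fell in Gli1Het NSCs and for Rrm2, which has none.
Mcm6, chr1:128359686-128359865, minus strand: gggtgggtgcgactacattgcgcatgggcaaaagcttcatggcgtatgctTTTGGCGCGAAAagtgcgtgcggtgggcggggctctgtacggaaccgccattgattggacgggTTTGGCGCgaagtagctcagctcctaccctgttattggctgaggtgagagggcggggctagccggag
Mcm5, chr8:75109349-75109528, plus strand: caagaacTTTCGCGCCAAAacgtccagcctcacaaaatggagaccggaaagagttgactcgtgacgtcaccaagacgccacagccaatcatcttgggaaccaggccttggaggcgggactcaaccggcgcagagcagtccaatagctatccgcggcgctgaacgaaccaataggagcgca
Rfc3, chr5:151651189-151651368, minus strand: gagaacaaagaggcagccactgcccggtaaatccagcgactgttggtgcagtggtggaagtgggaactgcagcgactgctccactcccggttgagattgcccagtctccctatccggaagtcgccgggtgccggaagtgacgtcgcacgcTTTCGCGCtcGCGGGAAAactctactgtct
Pola1, chrX:93632136-93632315, minus strand: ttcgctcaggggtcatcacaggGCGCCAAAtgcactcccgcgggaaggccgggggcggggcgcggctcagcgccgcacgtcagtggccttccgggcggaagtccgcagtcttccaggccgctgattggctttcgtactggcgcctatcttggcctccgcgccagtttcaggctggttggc
Rrm2, chr12:24708094-24708273, plus strand: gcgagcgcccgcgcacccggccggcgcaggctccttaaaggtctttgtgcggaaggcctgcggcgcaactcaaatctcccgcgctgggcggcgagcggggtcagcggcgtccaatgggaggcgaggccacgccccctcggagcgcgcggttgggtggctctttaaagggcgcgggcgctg

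Among the 10 licensing genes, 6 fell in Gli1Het NSCs (Orc6, Cdt1, Mcm3, Mcm5, Mcm6 and Mcm7), with a median of -0.72 over the 10. Mcm3, a subunit of the MCM ring, was at 249, 231 and 184 CPM in the Gli1Het control libraries, 146, 41.4 and 121 in the Gli1Het cuprizone libraries, 219, 219 and 241 in the Gli1Null control libraries and 170.3, 199 and 194 in the Gli1Null cuprizone libraries. All cuprizone libraries lay below the control libraries of their genotype, by -1.11 ± 0.33 (log2 fold change ± SE, adjusted p = 0.0262) in Gli1Het NSCs and by -0.27 ± 0.33 (adjusted p = 0.702) in Gli1Null NSCs. Mcm6, whose promoter holds 3 of the matches shown above, 2 of them overlapping, was at 448, 413 and 362 CPM in the Gli1Het control libraries, 292, 79.5 and 231 in the Gli1Het cuprizone libraries, 425, 427 and 458 in the Gli1Null control libraries and 339.9, 391 and 382 in the Gli1Null cuprizone libraries. The groups were again apart in both genotypes, with -1.02 ± 0.33 (adjusted p = 0.0354) in Gli1Het NSCs and -0.23 ± 0.33 (adjusted p = 0.742) in Gli1Null NSCs. Mcm7, the most abundant of the 10 in CPM, was at 537, 431 and 391 CPM in the Gli1Het control libraries, 369.9, 216 and 315 in the Gli1Het cuprizone libraries, 435, 423 and 460.2 in the Gli1Null control libraries and 386, 424 and 419 in the Gli1Null cuprizone libraries. It fell by a smaller margin in Gli1Het NSCs (-0.59 ± 0.18, adjusted p = 0.028), and in Gli1Null NSCs the groups overlapped (-0.10 ± 0.18, adjusted p = 0.799). In the fit that omits the library labelled Gli1Het cuprizone replicate 2, 6 of the 10 licensing genes passed, 5 of them among the 6 above, with a median of -0.42. The changes in Gli1Het NSCs were then -0.73 ± 0.14 (adjusted p = 0.00404) for Mcm3, -0.64 ± 0.13 (adjusted p = 0.00537) for Mcm6 and -0.40 ± 0.14 (adjusted p = 0.0476) for Mcm7.

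The 6 subunits of the ring, which work as 1 complex in equal numbers, had unequal fitted changes at the mRNA level. Mcm5 had the largest fitted change at -1.17 ± 0.39 and Mcm4 the smallest at -0.35 ± 0.16 (adjusted p = 0.108), where the Gli1Het groups overlapped. In the library labelled Gli1Het cuprizone replicate 2, Mcm5 was at 39.5 CPM against 119.6 CPM for Mcm4, while in the Gli1Het control libraries Mcm5 was at 293, 273 and 221 and Mcm4 at 221, 207 and 182. Mcm4 was also the 1 gene of the 45 with a positive value in Gli1Null NSCs, at 0.12 ± 0.16 (adjusted p = 0.734). Without the library labelled replicate 2 the Gli1Het changes were -0.75 ± 0.17 (adjusted p = 0.00797) for Mcm5 and -0.18 ± 0.12 (adjusted p = 0.291) for Mcm4, again the largest and the smallest of the 6. Differences between subunits were not tested.

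**Figure D3:**
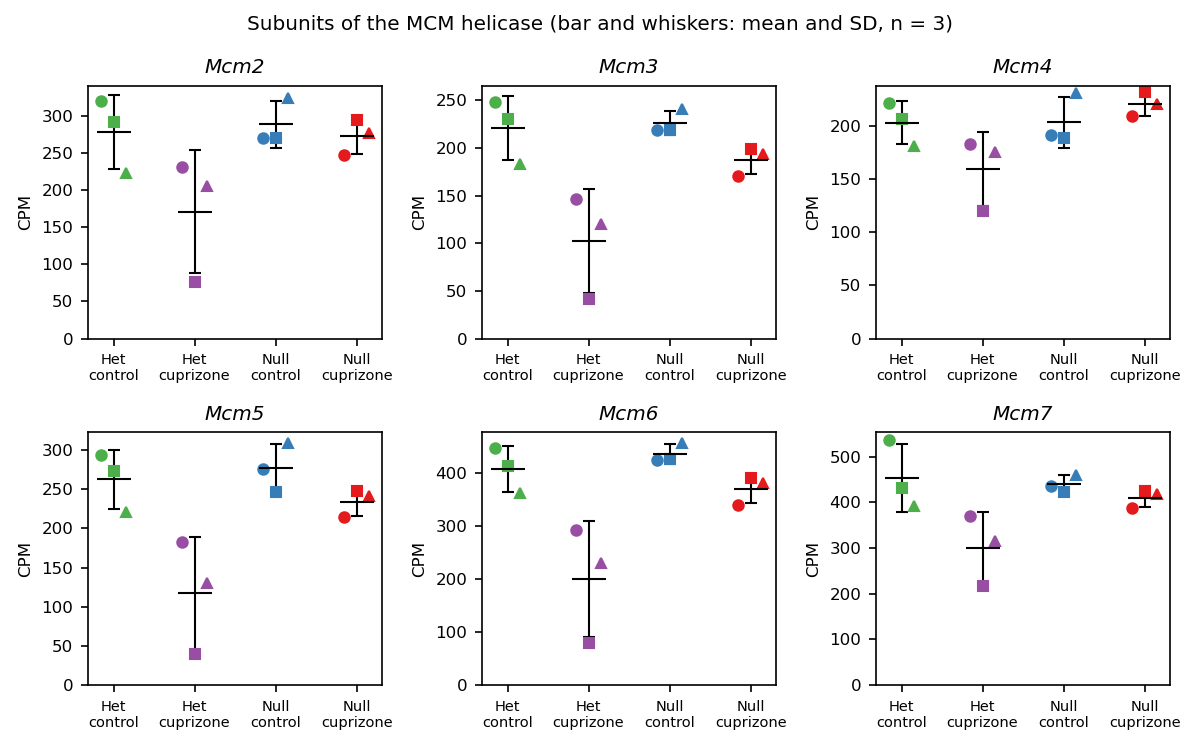
CPM of the 6 MCM subunits in each library (circle, square and triangle for replicates 1, 2 and 3), with the mean and SD of each group (n = 3) and each axis starting at 0. The square of the Gli1Het cuprizone group is the lowest point in all 6 panels, and for Mcm4 replicate 1 of that group, at 183 CPM, lies within the range of the control libraries, with replicate 3, at 175, just below it.

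Orc6, a subunit of the origin recognition complex, was at 76.03, 68.1 and 61.9 CPM in the Gli1Het control libraries, 53.1, 43.5 and 58.1 in the Gli1Het cuprizone libraries, 71.5, 66.9 and 69.4 in the Gli1Null control libraries and 51.4, 58.6 and 51.4 in the Gli1Null cuprizone libraries. It passed in Gli1Het NSCs at -0.41 ± 0.13 (adjusted p = 0.0287) and not in Gli1Null NSCs at -0.37 ± 0.13 (adjusted p = 0.148), and no cuprizone library overlapped its controls. The difference between these changes was -0.05, with a 95% interval of -0.44 to 0.34. With the library labelled Gli1Het cuprizone replicate 2 left out, it passed in Gli1Null NSCs (adjusted p = 0.0393) and not in Gli1Het NSCs (-0.30 ± 0.11, adjusted p = 0.0693). Cdc6, the ATPase that helps to load the ring, was at 69.8, 61.5 and 53.2 CPM in the Gli1Het control libraries, 48.2, 9.54 and 39.98 in the Gli1Het cuprizone libraries, 66.7, 59.99 and 64.7 in the Gli1Null control libraries and 40.5, 53.6 and 49.7 in the Gli1Null cuprizone libraries. The groups did not overlap in either genotype, but with replicate 2 far below the other 2 libraries of the Gli1Het cuprizone group the fitted change of -0.93 ± 0.41 missed the threshold (adjusted p = 0.0978), as did -0.41 ± 0.40 in Gli1Null NSCs. Cdt1, its partner in loading, passed at -0.74 ± 0.26 (adjusted p = 0.0423). Orc1, at 13.8 CPM or less in every library, had -0.41 ± 0.27 and overlapping groups. When the library labelled Gli1Het cuprizone replicate 2 was left out, the Gli1Het changes were -0.48 ± 0.15 (adjusted p = 0.0369) for Cdc6, -0.44 ± 0.14 (adjusted p = 0.0403) for Cdt1 and -0.11 ± 0.19 (adjusted p = 0.706) for Orc1.

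Among the 6 genes of helicase activation, Cdc45, Gins1 and Gins2 fell in Gli1Het NSCs, and the median of the 6 was -0.85. Gins1, a subunit of the GINS complex that binds Cdc45 and the MCM ring, was at 38.1, 32.9 and 29.9 CPM in the Gli1Het control libraries, 19.8, 8.85 and 16.96 in the Gli1Het cuprizone libraries, 36.1, 28.8 and 32.03 in the Gli1Null control libraries and 23.9, 23.1 and 21.6 in the Gli1Null cuprizone libraries. It had the largest change of the 6, -1.15 ± 0.24 (adjusted p = 0.006), and its Gli1Null cuprizone libraries also lay below their controls (-0.50 ± 0.24, adjusted p = 0.293). Cdc45 was at 72.5, 64.7 and 61.2 CPM in the Gli1Het control libraries, 43.2, 21.4 and 45.1 in the Gli1Het cuprizone libraries, 67.1, 64.4 and 70.7 in the Gli1Null control libraries and 47.4, 60.9 and 54.05 in the Gli1Null cuprizone libraries. Both genotypes showed groups that did not overlap, with -0.86 ± 0.23 (adjusted p = 0.0159) and -0.32 ± 0.22 (adjusted p = 0.489). Gins2 was at 123, 105 and 93.2 CPM in the Gli1Het control libraries, 81.3, 32.5 and 64.5 in the Gli1Het cuprizone libraries, 104, 99.96 and 121 in the Gli1Null control libraries and 76.4, 84.02 and 83.6 in the Gli1Null cuprizone libraries. Its change was -0.85 ± 0.25 (adjusted p = 0.0252) in Gli1Het NSCs and -0.42 ± 0.25 (adjusted p = 0.416) in Gli1Null NSCs. In the fit that omits the library labelled Gli1Het cuprizone replicate 2, the same 3 genes passed and the median of the 6 was -0.45, with -0.87 ± 0.15 (adjusted p = 0.00238) for Gins1, -0.58 ± 0.12 (adjusted p = 0.00642) for Cdc45 and -0.55 ± 0.14 (adjusted p = 0.0153) for Gins2.

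Gins4, another subunit of GINS, had the smallest change of the 45 genes. It was at 80.8, 59.7 and 59.01 CPM in the Gli1Het control libraries, 55.00, 57.2 and 65.7 in the Gli1Het cuprizone libraries, 68.2, 52.2 and 60.2 in the Gli1Null control libraries and 52.7, 63.5 and 57.1 in the Gli1Null cuprizone libraries. The groups overlapped in both genotypes, the change was -0.16 ± 0.15 (adjusted p = 0.417) in Gli1Het NSCs, and the library labelled Gli1Het cuprizone replicate 2 was within the range of the others. Mcm10, a factor that helps to start the helicase, had the widest spread of the 45 genes in the Gli1Het cuprizone group, with 42.4, 4.20 and 28.3 CPM against 52.9, 46.7 and 35.7 in the Gli1Het control libraries. Its change of -0.86 ± 0.53 did not pass (adjusted p = 0.224), and neither did that of Gins3. Without the library labelled replicate 2 the Gli1Het changes were -0.14 ± 0.16 (adjusted p = 0.571) for Gins4 and -0.35 ± 0.19 (adjusted p = 0.201) for Mcm10, and Gins4 was no longer the smallest of the 45.

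Of the 8 polymerase and primase genes, 6 fell in Gli1Het NSCs (Pola1, Prim1, Prim2, Pold1, Pold2 and Pole), and Pola2 and Pole2 did not pass. The median of the 8 was -0.98. Prim1, the catalytic subunit of primase, was at 104, 95.6 and 87.3 CPM in the Gli1Het control libraries, 55.6, 24.2 and 50.2 in the Gli1Het cuprizone libraries, 99.4, 87.7 and 102 in the Gli1Null control libraries and 64.04, 72.5 and 66.7 in the Gli1Null cuprizone libraries. Its groups were apart in both genotypes, with -1.15 ± 0.24 (adjusted p = 0.00552) and -0.51 ± 0.23 (adjusted p = 0.277). Pola1, the catalytic subunit of polymerase alpha, was at 65.4, 75.2 and 64.5 CPM in the Gli1Het control libraries, 51.4, 16.2 and 28.2 in the Gli1Het cuprizone libraries, 71.1, 77.9 and 79.7 in the Gli1Null control libraries and 56.8, 55.2 and 51.6 in the Gli1Null cuprizone libraries. It changed by -1.11 ± 0.30 (adjusted p = 0.0172) in Gli1Het NSCs and by -0.48 ± 0.29 (adjusted p = 0.417) in Gli1Null NSCs, again without overlap. Pold1, the catalytic subunit of polymerase delta, was at 154, 147 and 105 CPM in the Gli1Het control libraries, 89.5, 29.2 and 67.6 in the Gli1Het cuprizone libraries, 137, 159 and 157 in the Gli1Null control libraries and 129.6, 141 and 123 in the Gli1Null cuprizone libraries. Its Gli1Het groups were apart at -1.13 ± 0.31 (adjusted p = 0.0174), and its Gli1Null groups overlapped at -0.20 ± 0.30 (adjusted p = 0.755). With the library labelled Gli1Het cuprizone replicate 2 left out, the same 6 of the 8 passed, with a median of -0.63, and the changes were -0.85 ± 0.12 (adjusted p = 0.000604) for Prim1, -0.78 ± 0.19 (adjusted p = 0.013) for Pola1 and -0.78 ± 0.17 (adjusted p = 0.00693) for Pold1.

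Of the clamp and its loader, Pcna, Rfc3, Rfc4 and Rfc5 fell in Gli1Het NSCs and Rfc2 did not pass. Rfc4, a small subunit of the loader, had the smallest adjusted p of the 45 genes in both genotypes. It was at 74.7, 62.2 and 58.6 CPM in the Gli1Het control libraries, 39.1, 25.3 and 34.9 in the Gli1Het cuprizone libraries, 75.8, 71.6 and 65.6 in the Gli1Null control libraries and 45.6, 54.9 and 45.5 in the Gli1Null cuprizone libraries. The fall was -0.98 ± 0.17 (adjusted p = 0.0023) in Gli1Het NSCs, and in Gli1Null NSCs, also without overlap, the change was -0.54 ± 0.16 (adjusted p = 0.0968). Rfc3 was at 98.1, 74.3 and 64.6 CPM in the Gli1Het control libraries, 56.95, 27.6 and 41.2 in the Gli1Het cuprizone libraries, 64.4, 60.2 and 74.1 in the Gli1Null control libraries and 44.5, 58.6 and 52.1 in the Gli1Null cuprizone libraries. It changed by -0.92 ± 0.24 (adjusted p = 0.0146) and by -0.36 ± 0.23 (adjusted p = 0.458), with groups apart in both genotypes. Pcna, the clamp itself and a common marker of S phase, was at 273, 242 and 197 CPM in the Gli1Het control libraries, 168, 112 and 186 in the Gli1Het cuprizone libraries, 227, 229 and 242 in the Gli1Null control libraries and 213, 223 and 207 in the Gli1Null cuprizone libraries. Its fall was -0.61 ± 0.17 (adjusted p = 0.0216) in Gli1Het NSCs, and in Gli1Null NSCs the groups were apart by a narrow margin (-0.12 ± 0.17, adjusted p = 0.753). Rfc2 was at 134, 104 and 89.5 CPM in the Gli1Het control libraries, 103, 67.8 and 95.7 in the Gli1Het cuprizone libraries, 119.8, 114 and 116 in the Gli1Null control libraries and 99.4, 100.5 and 103 in the Gli1Null cuprizone libraries. Its change of -0.30 ± 0.17 did not pass (adjusted p = 0.182) and its Gli1Het groups overlapped. When the library labelled Gli1Het cuprizone replicate 2 was left out, Pcna, Rfc3 and Rfc4 passed, with -0.81 ± 0.14 (adjusted p = 0.00192) for Rfc4, -0.68 ± 0.20 (adjusted p = 0.0241) for Rfc3, -0.42 ± 0.13 (adjusted p = 0.0304) for Pcna and -0.14 ± 0.14 (adjusted p = 0.503) for Rfc2.

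The RPA complex, which coats single strands in replication and also in repair, changed least among the groups of genes, with a median of -0.41 in Gli1Het and -0.11 in Gli1Null NSCs. Rpa1, its large subunit, was at 147, 145 and 139 CPM in the Gli1Het control libraries, 136, 90.1 and 126 in the Gli1Het cuprizone libraries, 153, 142 and 156 in the Gli1Null control libraries and 142, 151 and 149.6 in the Gli1Null cuprizone libraries. The change of -0.29 ± 0.14 did not pass (adjusted p = 0.115), although the 3 Gli1Het cuprizone libraries were the lowest of their genotype. Rpa2, the middle subunit, was at 145, 115 and 96.5 CPM in the Gli1Het control libraries, 107, 53.1 and 109 in the Gli1Het cuprizone libraries, 117, 98.2 and 123 in the Gli1Null control libraries and 94.3, 118 and 101 in the Gli1Null cuprizone libraries, with overlapping groups in both genotypes and -0.41 ± 0.24 (adjusted p = 0.211) in Gli1Het NSCs. Rpa3, the small subunit, was at 30.2, 32.4 and 29.6 CPM in the Gli1Het control libraries, 19.7, 22.2 and 21.7 in the Gli1Het cuprizone libraries, 40.4, 31.3 and 36.4 in the Gli1Null control libraries and 31.9, 26.1 and 31.3 in the Gli1Null cuprizone libraries. It passed at -0.53 ± 0.14 (adjusted p = 0.0133), and here the 3 Gli1Het cuprizone libraries were close to each other, with replicate 1 the lowest. Without replicate 2 the median of the 3 in Gli1Het NSCs was -0.14, with -0.13 ± 0.09 (adjusted p = 0.298) for Rpa1, -0.14 ± 0.16 (adjusted p = 0.575) for Rpa2 and -0.57 ± 0.15 (adjusted p = 0.0153) for Rpa3.

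Lig1, the ligase that seals lagging strand pieces, had the third largest fall of the 45. It was at 164, 141 and 128 CPM in the Gli1Het control libraries, 84.6, 17.1 and 70.5 in the Gli1Het cuprizone libraries, 149.6, 149 and 160.03 in the Gli1Null control libraries and 101, 119 and 113 in the Gli1Null cuprizone libraries. The change was -1.34 ± 0.40 (adjusted p = 0.0263) in Gli1Het NSCs and -0.46 ± 0.39 (adjusted p = 0.566) in Gli1Null NSCs, without overlap in either. Fen1, the nuclease that cuts the flap before ligation, was at 127, 101 and 87.7 CPM in the Gli1Het control libraries, 84.4, 40.6 and 80.03 in the Gli1Het cuprizone libraries, 116, 101 and 115 in the Gli1Null control libraries and 81.5, 97.3 and 96.6 in the Gli1Null cuprizone libraries. It did not pass in Gli1Het NSCs at -0.63 ± 0.23 (adjusted p = 0.0564), with groups that were apart in both genotypes. In the fit that omits the library labelled Gli1Het cuprizone replicate 2, the changes were -0.90 ± 0.13 (adjusted p = 0.000814) for Lig1 and -0.36 ± 0.15 (adjusted p = 0.0934) for Fen1.

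Of the 5 genes of nucleotide supply, Rrm1, Rrm2, Tyms and Dut fell in Gli1Het NSCs and Tk1 did not pass. The median of the 5 was -1.02 in Gli1Het NSCs and -0.52 in Gli1Null NSCs, the lowest there of any role. Rrm2 was at 579, 495 and 446 CPM in the Gli1Het control libraries, 268, 70.8 and 220.3 in the Gli1Het cuprizone libraries, 531, 495 and 514 in the Gli1Null control libraries and 301, 346 and 329.95 in the Gli1Null cuprizone libraries. It fell by -1.44 ± 0.35 (adjusted p = 0.0109) in Gli1Het NSCs. In Gli1Null NSCs its change of -0.65 ± 0.34 (adjusted p = 0.34) was the lowest of the 45 there too. The Gli1Null groups did not overlap, and Rrm2 passed when edgeR was fitted on the 2 Gli1Null groups alone. Rrm1, the large subunit of the same enzyme, was at 389, 398 and 356 CPM in the Gli1Het control libraries, 281, 106 and 251 in the Gli1Het cuprizone libraries, 356, 373 and 422 in the Gli1Null control libraries and 317, 357 and 338 in the Gli1Null cuprizone libraries. Its fall was -0.84 ± 0.27 (adjusted p = 0.0326) in Gli1Het NSCs, and in Gli1Null NSCs the groups overlapped (-0.19 ± 0.27). Tyms, which makes thymidylate, was at 126, 117 and 104 CPM in the Gli1Het control libraries, 80.1, 33.6 and 65.1 in the Gli1Het cuprizone libraries, 124, 116 and 114 in the Gli1Null control libraries and 71.5, 86.3 and 85.2 in the Gli1Null cuprizone libraries. The groups were apart in both genotypes, at -0.96 ± 0.24 (adjusted p = 0.0127) and -0.54 ± 0.24 (adjusted p = 0.251). Dut, which removes dUTP, was at 110.2, 87.5 and 82.5 CPM in the Gli1Het control libraries, 55.3, 27.9 and 53.2 in the Gli1Het cuprizone libraries, 95.8, 82.2 and 98.6 in the Gli1Null control libraries and 63.97, 71.00 and 70.5 in the Gli1Null cuprizone libraries. It changed by -1.04 ± 0.22 (adjusted p = 0.00604) and -0.43 ± 0.22 (adjusted p = 0.323), also without overlap. Tk1, the salvage kinase for thymidine, stood at 37.8, 7.15 and 42.3 CPM in the Gli1Het cuprizone libraries against 68.2, 53.9 and 53.1 in their controls. Without the library labelled Gli1Het cuprizone replicate 2 all 5 passed in Gli1Het NSCs, with a median of -0.67. The changes were -1.05 ± 0.14 (adjusted p = 0.000462) for Rrm2, -0.52 ± 0.11 (adjusted p = 0.0074) for Rrm1, -0.67 ± 0.13 (adjusted p = 0.00346) for Tyms, -0.78 ± 0.14 (adjusted p = 0.00202) for Dut and -0.54 ± 0.15 (adjusted p = 0.0205) for Tk1.

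In the genes that restore chromatin and methylation, every Gli1Het cuprizone library lay below every Gli1Het control library for 4 of 4, but 1, Uhrf1, passed. Uhrf1, which recognises hemimethylated DNA and brings in Dnmt1, was at 237, 254 and 197 CPM in the Gli1Het control libraries, 129, 33.5 and 99.2 in the Gli1Het cuprizone libraries, 254, 256 and 291 in the Gli1Null control libraries and 195, 228 and 228 in the Gli1Null cuprizone libraries. Its fall of -1.40 ± 0.35 (adjusted p = 0.0128) was the second largest of the 45, beside -0.30 ± 0.34 (adjusted p = 0.68) in Gli1Null NSCs. Dnmt1, the maintenance methyltransferase, was at 266, 265 and 225 CPM in the Gli1Het control libraries, 207, 36.1 and 125 in the Gli1Het cuprizone libraries, 279.9, 308 and 309 in the Gli1Null control libraries and 238, 235 and 267 in the Gli1Null cuprizone libraries. Its change was -1.04 ± 0.42 (adjusted p = 0.0721), with 1 library far below the other 2. Chaf1b, a subunit of the CAF-1 histone chaperone, was at 90.9, 80.3 and 69.7 CPM in the Gli1Het control libraries, 56.8, 13.7 and 49.6 in the Gli1Het cuprizone libraries, 68.6, 64.7 and 86.1 in the Gli1Null control libraries and 62.9, 69.1 and 63.7 in the Gli1Null cuprizone libraries. It had -1.01 ± 0.37 (adjusted p = 0.054), and in Gli1Null NSCs the groups overlapped at -0.17 ± 0.37. With the library labelled Gli1Het cuprizone replicate 2 left out, 3 of the 4 passed, with -1.01 ± 0.15 (adjusted p = 0.000942) for Uhrf1, -0.60 ± 0.18 (adjusted p = 0.0262) for Dnmt1 and -0.59 ± 0.15 (adjusted p = 0.0131) for Chaf1b.

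E2f1, a transcription factor of the programme and itself one of its targets, was at 75.4, 72.01 and 55.6 CPM in the Gli1Het control libraries, 46.2, 10.4 and 36.1 in the Gli1Het cuprizone libraries, 77.7, 74.2 and 87.3 in the Gli1Null control libraries and 46.3, 57.3 and 58.7 in the Gli1Null cuprizone libraries. It fell by -1.14 ± 0.38 (adjusted p = 0.0392) in Gli1Het NSCs, and in Gli1Null NSCs, with groups apart, the change was -0.56 ± 0.38 (adjusted p = 0.468). Ung, the uracil DNA glycosylase, was at 7.71, 9.07 and 9.13 CPM in the Gli1Het control libraries, 6.38, 3.31 and 8.09 in the Gli1Het cuprizone libraries, 9.38, 8.83 and 11.04 in the Gli1Null control libraries and 9.76, 9.72 and 9.26 in the Gli1Null cuprizone libraries. It was the least abundant of the 45 genes, its groups overlapped in both genotypes, and its change in Gli1Het NSCs was -0.56 ± 0.27 (adjusted p = 0.125). When the library labelled Gli1Het cuprizone replicate 2 was left out, the Gli1Het changes were -0.72 ± 0.17 (adjusted p = 0.00935) for E2f1 and -0.26 ± 0.19 (adjusted p = 0.336) for Ung.

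In Gli1Null NSCs the same comparison of diets gave smaller values. EdgeR called 0 of the 45 genes there (0.25% of all genes as lower), and 3 had an unadjusted p under 0.05 (Orc6, Rfc4 and Tyms) where 5.49% of all genes were lower at that level. The log2 fold change was negative for 44 of the 45 genes (51.7% of all genes), with a median of -0.27, or 83.0% of the control level, beside -0.02 for all genes. For 28 genes every Gli1Null cuprizone library lay below every Gli1Null control library, against 20% of all genes. The count differed between fits, and the cause was not tested. Fitted on the 2 Gli1Null groups alone, edgeR called 20 of the 45 as lower and 10.6% of all genes. The 2 Gli1Het groups alone gave 1 of the 45 and 0.736% of all genes. In the fit that omits the library labelled Gli1Het cuprizone replicate 2, the Gli1Null count was 10 (2.78% of all genes). It was 15 with library quality weights in limma (11.2%), and DESeq2 called 1, Rfc4 (1.36%). The 20 were Cdc45, Cdc6, Dnmt1, Dut, E2f1, Gins1, Gins2, Lig1, Mcm3, Orc6, Pola1, Pola2, Pole2, Prim1, Rfc2, Rfc4, Rrm2, Tk1, Tyms and Uhrf1, and of the MCM ring they held Mcm3 alone.

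The fitted fall was steeper in Gli1Het than in Gli1Null NSCs for 45 of 45 genes, which held for 50.1% of all genes. The median of the difference was -0.54. None passed the test of the interaction of genotype and diet with edgeR (0% of all genes) or with DESeq2 (0.0698% of all genes as lower), and 1, Uhrf1, had an unadjusted p under 0.05 (3.36% of all genes were lower at that level). Its difference was -1.10, with a 95% interval of -2.16 to -0.04, and an adjusted p of 0.543, and when the library labelled replicate 2 is left out it becomes -0.71 (adjusted p = 0.596). Limma with library quality weights called 8 (9.66% of all genes as lower). Without Gli1Het cuprizone replicate 1 edgeR called 4 (6.27% of all genes). Without the library labelled replicate 2 it called 0 (0% of all genes as lower), with the median of the difference at -0.27 and 42 of 45 negative. The share of all genes that were negative in that last fit is not given here. Across the 45 genes the changes in the 2 genotypes had a Pearson's r of 0.68 and a Spearman's rho of 0.66, and of 0.71 and 0.70 without the library labelled replicate 2. These 2 comparisons share no library, but the genes share libraries within each and are not independent.

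Set side by side on cuprizone, the Gli1Het libraries were lower than the Gli1Null libraries for 44 of the 45 genes by fitted value (48.7% of all genes), with a median of -0.60. EdgeR called 0 of them (0.0227% of all genes as lower), 24 had an unadjusted p under 0.05 (11.7%), and for 27 the groups did not overlap (14.9%). DESeq2 called 5, Pold1, Pold2, Rfc4, Rpa3 and Uhrf1 (3.67%), edgeR without the filter on low counts called 3 (0.695%), and limma with library quality weights called 28 (19.7%). Here too single libraries decided the count. Without Gli1Het cuprizone replicate 1 edgeR called 30 (16.4%) at a median of -0.90, and without the library labelled replicate 2 it called 2, Pold2 and Uhrf1 (0.112%), at a median of -0.30. Replicates 1 and 3 of the Gli1Het cuprizone group both lay below every Gli1Null cuprizone library for 27 of the 45 genes, as 18.8% of all genes did. Replicate 1, the library of that group with a sample number of 10 or more, differed from the Gli1Null cuprizone libraries by a median of -0.20, with 37 of 45 genes lower. These values rest on 1 library against 3, and the share of all genes that were lower is not given for them.

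On the control diet none of the 45 genes passed between the genotypes with edgeR, DESeq2 or limma. EdgeR called none of the 17623 genes there, so that Gli1 itself did not pass with it. The lack of a call thus does not show the lack of a difference. The median of Gli1Het over Gli1Null was -0.04 with 33 of 45 negative (49.3% of all genes), and 4 genes were lower without overlap (Cdt1, Chaf1a, Dnmt1 and Pold2), beside 4.31% of all genes. The direction of the median turned with a term for sample numbers under 10 (0.27, with 3 of 45 negative) and without Gli1Het control replicate 3 (0.04, with 15 of 45 negative). Pold2, an accessory subunit of polymerase delta, was the 1 gene with an unadjusted p under 0.05 (0.732% of all genes were lower at that level). It was at 65.04, 71.01 and 59.7 CPM in the Gli1Het control libraries, 49.8, 25.9 and 52.2 in the Gli1Het cuprizone libraries, 103, 95.3 and 86.7 in the Gli1Null control libraries and 97.1, 84.2 and 84.2 in the Gli1Null cuprizone libraries. On both diets every Gli1Het library lay below every Gli1Null library, by -0.54 ± 0.21 on the control diet (unadjusted p = 0.0248, adjusted p = 1) and by -1.06 ± 0.21 on cuprizone (adjusted p = 0.0562, or 0.0314 at -0.80 ± 0.12 without the library labelled replicate 2). Pold2 is outside the rule for genes given in full, and it was chosen after its values were seen.

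Another 53 genes of the replication pathway, taken from a list of licensing regulators, fork proteins and E2F or pocket protein genes, moved less evenly. In Gli1Het NSCs 25 of them fell, 3 rose and 25 did not pass, with a median of -0.54. Over all genes tested 15.3% passed as lower and 18.8% as higher. In Gli1Null NSCs none passed and the median was -0.21. There 8 had an unadjusted p under 0.05 in either direction, and 16 of the 53 had a positive change. Over all genes 5.49% were lower at that level, a share that leaves out the genes that were higher. The 8 are thus not to be compared with it, and the share in either direction is not given here. Without the library labelled Gli1Het cuprizone replicate 2, 24 fell in Gli1Het NSCs (12.3% of all genes), 22 of them among the 25. In that fit 1 rose (E2f6) and 28 did not pass, with a median of -0.36. Rnaseh2b, a subunit of RNase H that removes RNA from DNA, was at 71.96, 58.7 and 57.5 CPM in the Gli1Het control libraries, 33.2, 20.4 and 37.02 in the Gli1Het cuprizone libraries, 60.2, 67.6 and 60.6 in the Gli1Null control libraries and 43.2, 43.9 and 39.8 in the Gli1Null cuprizone libraries. It fell by -1.06 ± 0.19 (adjusted p = 0.00299) in Gli1Het NSCs. Gmnn, which encodes geminin, the inhibitor of Cdt1, fell by -1.22 ± 0.24 (adjusted p = 0.00469), Rbl1, a pocket protein that binds E2F factors, by -0.76 ± 0.17 (adjusted p = 0.00699), and Dscc1, a part of another clamp loader, by -1.38 ± 0.34 (adjusted p = 0.0118). The most abundant of the list, Nasp and Tfdp1, a histone chaperone and the partner of E2F factors, fell by -0.99 ± 0.27 and -0.60 ± 0.20. The 3 that rose were E2f5 and E2f6, E2F family members that act as repressors, and Pold4. E2f6 was at 65.6, 62.6 and 59.3 CPM in the Gli1Het control libraries, 77.7, 75.5 and 89.9 in the Gli1Het cuprizone libraries, 61.8, 59.9 and 67.5 in the Gli1Null control libraries and 76.1, 89.5 and 76.4 in the Gli1Null cuprizone libraries, and its value in Gli1Null NSCs, 0.35 ± 0.11 (adjusted p = 0.11), stood beside 0.37 ± 0.11 in Gli1Het NSCs. E2f5 and Pold4 are named as the rest of a count of 3. With the library labelled Gli1Het cuprizone replicate 2 left out, the Gli1Het changes were -0.84 ± 0.13 for Rnaseh2b, -0.93 ± 0.14 for Gmnn, -0.56 ± 0.11 for Rbl1, -1.01 ± 0.22 for Dscc1, -0.68 ± 0.17 for Nasp, -0.34 ± 0.10 for Tfdp1 and 0.42 ± 0.11 for E2f6, all of which passed.

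**Figure D4:**
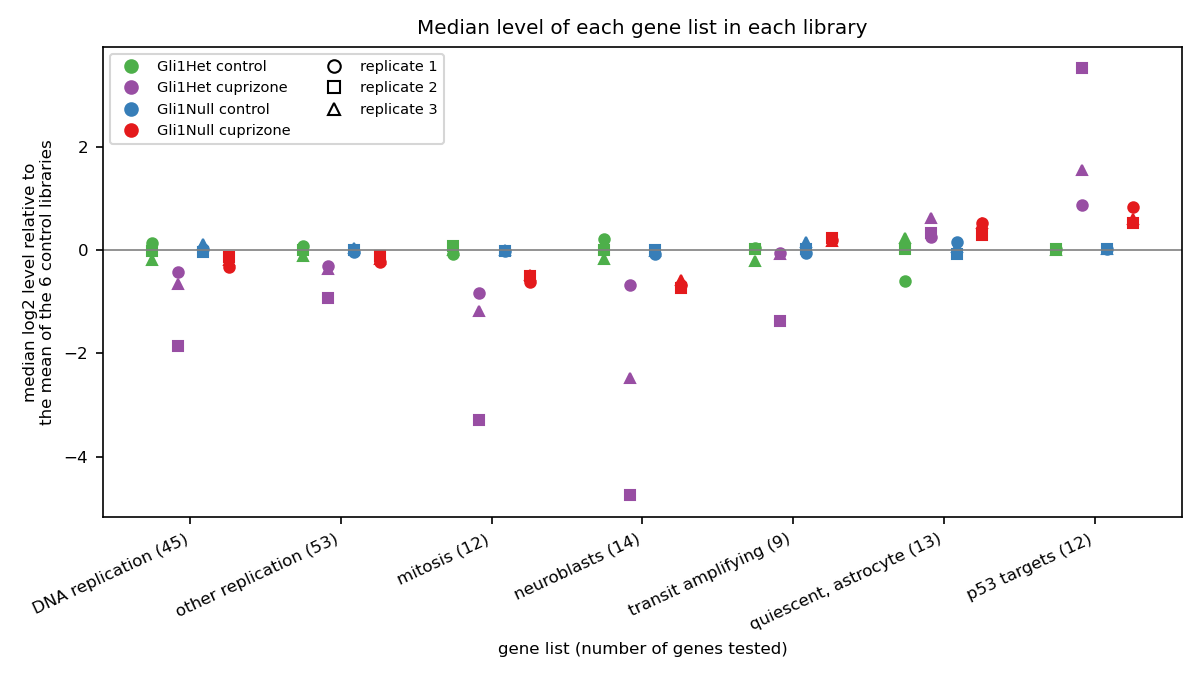
Median log2 level of the 45 replication genes, of the 53 other replication genes and of 5 marker lists in each library, set against the 6 control libraries, whose mean is 0 (colours for groups, shapes for replicates, number of genes tested in brackets). The square of the Gli1Het cuprizone group is the lowest point for replication, mitosis, neuroblast and transit amplifying genes and the highest for p53 targets.

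Other genes moved with the replication genes across the same libraries, and their part in the result was not tested. The counts of the marker lists in Gli1Het NSCs are to be read beside 15.3% of all genes called lower and 18.8% called higher. Of 12 mitosis genes 10 fell in Gli1Het NSCs, and their summed level was 2200 to 2504 CPM in the Gli1Het control group, 239.9 to 1339 in the Gli1Het cuprizone group, 2341 to 2358 in the Gli1Null control group and 1543 to 1709 in the Gli1Null cuprizone group. Mki67 was at 158, 28.3 and 129.7 CPM in the Gli1Het cuprizone libraries against 236, 327 and 304 in their controls. Of 14 neuroblast genes 10 fell, with sums of 5489 to 7308, 401.1 to 3719, 6035 to 6384 and 3799.7 to 4156 CPM in the same order of groups, and Dcx was at 287, 11.5 and 77.4 CPM in the Gli1Het cuprizone libraries against 487, 476 and 402. Neuroblasts are the dividing and migrating progeny of the SVZ, so these genes mark the later cells of the lineage. Of 9 transit amplifying genes tested 3 fell, with sums of 2628 to 3377, 1217 to 2727, 3026 to 3109 and 2887 to 2974 CPM, and the lowest of all was the library labelled Gli1Het cuprizone replicate 2. Of 13 genes of quiescent stem cells and astrocytes 7 rose, with sums of 7728 to 13397, 14095 to 17525, 10239 to 12155 and 14049 to 17196 CPM. By these sums, which weigh abundant genes most, both cuprizone groups lay above all controls, but not every gene went that way. Of the 13 genes 3 had a negative change in Gli1Het NSCs, down to -1.14. In Gli1Null NSCs 1 of them had a negative change, at -1.16. With the library labelled Gli1Het cuprizone replicate 2 left out, 12 of the 12 mitosis genes and 13 of the 14 neuroblast genes fell in Gli1Het NSCs. In that fit 3 transit amplifying genes fell and 3 rose, with the median of that list moving from -0.06 to 0.09, and 7 of the 13 quiescent genes rose. Over all genes 12.3% fell in it, and the share that rose is not given here. The sums of the other 2 libraries of the group were 1053 and 1339 CPM for mitosis, 1293 and 3719 for neuroblast and 2501 and 2727 for transit amplifying genes.

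Of 12 p53 target genes 9 rose in Gli1Het NSCs and 2 in Gli1Null NSCs, with sums of 571.7 to 606.6, 1029 to 6381, 599.7 to 640.4 and 921.7 to 1034 CPM. The share of all genes called higher for the Gli1Null diets is not given here, so the count of 2 cannot be set against it. Cdkn1a, the inhibitor of cyclin-dependent kinases, was at 36.5, 28.4 and 24.02 CPM in the Gli1Het control libraries, 181, 1614 and 407 in the Gli1Het cuprizone libraries, 29.6, 29.2 and 25.2 in the Gli1Null control libraries and 151, 131 and 140.1 in the Gli1Null cuprizone libraries. Its highest value was in the library where the replication genes were lowest. The p53 and transit amplifying lists share Btg2, and E2f2 is in the transit amplifying list and among the 53 other replication genes. Markers of other cells that the sort could hold also differed. Of 12 microglia genes 7 rose in Gli1Het NSCs, with sums of 74.6 to 92.9, 166.1 to 238.0, 69.8 to 97.2 and 102.3 to 123.6 CPM, with Aif1 at 0 in 4 of the 12 libraries and Itgam at 0 in 1. In Gli1Null NSCs the sum was higher on cuprizone while 9 of the 12 microglia genes had a negative change, with a median of -0.42. Of 7 oligodendrocyte precursor genes tested 3 rose and none fell (73.7 to 108.9, 231.0 to 463.2, 75.4 to 104.0 and 187.2 to 224.5 CPM). Of 6 ependymal genes 3 rose (41.9 to 87.6, 168.1 to 481.8, 60.4 to 65.7 and 111.8 to 118.9 CPM). By these sums both cuprizone groups lay above all controls for the 2 lists, but not every gene went that way. Of the 7 precursor genes 2 had a negative change in each genotype. Of the 6 ependymal genes 2 had a negative change in Gli1Het NSCs and 3 in Gli1Null NSCs. Of 8 oligodendrocyte genes 2 fell, with 308.3 to 1153, 173.9 to 346.7, 461.2 to 617.3 and 261.4 to 444.0 CPM, Mog at 0 in 1 library and Cldn11 at 0 in 2. Of 6 endothelial genes tested 3 fell, and their sum was at most 10.3 CPM in any library, with Cldn5 and Tek at 0 in 1 library each. When the library labelled Gli1Het cuprizone replicate 2 was left out, 8 p53 targets, 5 microglia, 3 precursor and 3 ependymal genes rose in Gli1Het NSCs. In that fit 1 precursor gene (Pdgfra), 3 oligodendrocyte and 3 endothelial genes fell, beside 12.3% of all genes. The share of all genes that rose in it is not given here, so the counts of rises cannot be set against it. The p53 sums of the other 2 libraries of the group were 1029 and 1806 CPM.

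For some of the genes the counting is uncertain, because the library kit does not mark strand and reads over shared exons cannot be assigned by it. Fen1 shares 84.2% of its exon bases with other genes (Gm10143 and Tmem258), Gins2 67.3% with Gse1, Chaf1a 52.5% with Ubxn6, Rfc2 15.1% with Lat2, Rfc4 12.7% with Eif4a2 and Mcm7 12.6% with Ap4m1, Cops6 and 2 microRNA genes. Near-identical copies exist for Pcna (Pcna-ps2, 99.2% identical over 781 bases, up to 715 counts in a library), Uhrf1 (Gm5648, 98.3%, up to 48 counts), Mcm7 (Gm5487, 97.7%), Rfc5 (Gm12870, 96.2%), Rrm2 (Gm48455, 95.5%) and Cdc6 (Gm9430, 95.2%), and the levels of these genes are to be read with that in mind.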

How the data were processed

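RNA of 12 libraries (4 groups of 3) was compared. Per the submitters' processing notes, the authors used FastQC 0.11.5, then TopHat2 2.1.1 for alignment to mm10 and HTSeq 0.11.1 for counting; the strand setting is not given in the sources used here. The deposited counts are not normalized; each cell pairs a gene ID with its count, and that ID was taken even where the line's first column differed (33998 lines). The deposited signal is those counts over a size factor of each library (authors' DESeq2 1.12). Multiplied back, 100.0% of its values were whole within 0.01, and edgeR on them, an alternative chosen after seeing the data, called as many genes. Reads assigned to no gene (54.5% to 58.4%) were left out.

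Genes were kept by edgeR's filter (minimum count 10, 17623 genes), TMM-scaled and tested by quasi-likelihood with all 4 groups in 1 fit (edgeR 4.0.16, R 4.3.3), with Benjamini-Hochberg adjustment over all kept genes at 0.05. The relative log2 levels used a prior count of 2. DESeq2 1.42.0, limma 3.58.1 with quality weights, edgeR on 2 groups, DESeq2 size factors, no filter, a sample number term, a replicate block and each library left out were the alternatives. The test was also run on simulated counts with the same spread in all groups. That run could not show the effect of unequal spread or of a single deviating library. Gene positions came from GENCODE M21.

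Values in every library were given, per role, for up to 2 genes with the highest mean CPM, up to 2 with the smallest p in each genotype's diet comparison, and any gene passing between genotypes or in the interaction; of other genes, those of the 53 with the smallest p or highest level, and Gli1, Mki67, Dcx and Cdkn1a. The values of other lists and genes without Gli1Het cuprizone replicate 2 were added after seeing the data. The genes and lists were chosen with earlier results of these data known.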

Additional observations from a re-analysis of the deposited data

How the results depend on the processing

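The fall of the replication genes in Gli1Het NSCs kept its direction in every alternative run, except that Gins4 was at 0.079 with limma's quality weights. The count of 27 was 1 for edgeR on the 2 groups compared and 10 to 39 with each library left out in turn. Counts over all genes were 5995, with 961 on the 2 groups, 10013 with limma and 3173 to 8496 with a library left out.

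For the Gli1Null diets the count of 0 genes was 1 with DESeq2, 20 with edgeR on the 2 groups, 15 with limma, 1 with the sample number term and 0 to 10 with a library left out. Over all genes 638 became 1318, 4193, 4634 and 1124 in that order, and 140 to 1888 with a library left out. With a library left out, values near 0 changed sign there for Mcm2 (-0.134 to 0.0280, above 0 without Gli1Null control replicate 3), Gins4 (-0.146 to 0.0453, above 0 without Gli1Null control or cuprizone replicate 1), Orc1 (-0.0906 to 0.101, above 0 without control or cuprizone replicate 3), Rpa1 (-0.0644 to 0.0116, above 0 without control replicate 3 or cuprizone replicate 1) and Ung (-0.0869 to 0.0884, above 0 without control or cuprizone replicate 3).

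Between the cuprizone groups the count of 0 was 5 with DESeq2, 3 without the filter, 28 with limma and 0 to 30 with a library left out, and over all genes 7 became 1732, 469, 6674, 1 on the 2 groups, 0 with the sample number term and 0 to 5096. Between the control groups the 45 genes gave 0 throughout, and over all genes 0 became 1 with DESeq2, 1 on the 2 groups, 1 with limma and 0 to 1 with a library left out. The interaction gave 8 with limma and 0 to 4 with a library left out, and over all genes 60 with DESeq2, 2724 with limma, 1 with the sample number term and 0 to 1714. The causes were not tested.

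Replicate numbers are shared by the groups, and the samples were not treated as paired. Of 18 pairs with the same number, 2 had a correlation of deviations above 0.1 (range -0.118 to 0.120). With so few libraries per group this cannot exclude that libraries of the same number were processed together. With a replicate block 27 of the 45 genes passed for the Gli1Het diets, 26 of them among the 27 without it, and over all genes 400 passed for the Gli1Null diets and 1 between the cuprizone groups. It changed no other call by more than 1.5 times. What depth limits was not compared between genes.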
